A study of Mus musculus with 6 samples.

Results

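The state of the liver sinusoidal endothelium was followed through 10 genes, chosen by symbol from the 21983 genes of the deposited count table, and all 10 were found and passed the filter on low counts. Of these, 7 are identity genes of the fenestrated sinusoidal cell (Stab2, Lyve1, Clec4g, Fcgr2b, Gpr182, Oit3 and Dnase1l3). The other 3 (Plvap, Cd34 and Vwf) were listed as markers of capillarized endothelium. They were measured in whole liver of 6 C57BL/6 mice that had all received thioacetamide (TAA), a hepatotoxin that scars the liver, at 400 mg/L in the drinking water for 16 weeks. The 3 mice labelled Lrat-Cre; Prmt1f/f (numbers 49, 82 and 88, called knockout mice) carry Cre under the control of Lrat, a hepatic stellate cell gene, and a floxed Prmt1, the main arginine methyltransferase for asymmetric dimethylarginine. The 3 mice labelled Prmt1f/f (42, 83 and 90, called control mice) carry the floxed allele without the Cre. The labels give no Cre driven in endothelium, no mouse without TAA was analysed here, and the labels give an age of 10 weeks without saying to which time point it refers. The question the design sets is how the fibrotic liver differs between these genotypes. It is asked here of endothelial genes.

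Liver sinusoids are lined by an unusual endothelium that is perforated by fenestrae, lies on almost no basement membrane and clears waste molecules from blood through scavenger receptors. In chronic injury these cells can lose fenestrae and identity genes and take up genes of continuous capillaries, a change called capillarization. In whole liver RNA, fewer cells of a type and less RNA per cell cannot be told apart. The replicates are mice, and p-values set the genotype difference against the spread between mice of the same genotype, moderated across genes.

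Total counts per mouse ranged from 13303884 to 16462278, and the 10 genes together took from 0.0295% to 0.0573% of them, with 123 counts (Vwf) to 1490 counts (Clec4g) for a gene in a mouse. Prmt1, the targeted gene, had 38.9, 44.4 and 49.8 CPM (counts scaled by library size and TMM factor, per 1e6) in control mice 42, 83 and 90 and 35.8, 24.7 and 25.8 in knockout mice 49, 82 and 88. The 12 hepatocyte genes listed took 74467 to 112964 CPM together. Control mouse 90 stood apart in a way that touches several of the 10 genes. Its short transcripts were high and its long ones low against the other mice, by a median of 0.66 log2 above the 6-mouse mean in 681 genes under 1000 bases and 0.50 log2 below it (median -0.50) in 684 genes of 8000 bases or more. In the other 5 mice the same medians stayed between -0.20 and -0.05 for the short genes and between 0.04 and 0.16 for the long ones. Mouse 90 is part of the 6-mouse mean, so its deviations push those of the other mice toward the opposite sign. Results are therefore also given without mouse 90 and with each mouse's trend on transcript length removed.

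No member reached the 0.05 threshold of adjusted p (edgeR, quasi-likelihood) between genotypes, and neither did any other of the 13153 genes tested (0.00%). At an unadjusted p under 0.05 there were 1448 genes (11.0%; 5.95% lower and 5.06% higher in knockout livers), DESeq2 called 238 genes (1.81%) with no member among them, and limma-voom called 0. Plvap was the member with the smallest p and the only one whose 3 knockout livers all lay under the 3 control livers. Groups without overlap, knockout lower, were seen in 7.95% of all genes tested. Of the 7 identity genes 6 had a negative difference, none had separate groups, and their median log2 fold change (knockout over control) was -0.22, beside -0.02 over all genes tested. Of all 13153 genes tested 6937 had a negative difference, and the sign counts of the lists below stand beside that share. Without mouse 90 the median of the identity genes was 0.05, and Clec4g, Fcgr2b and Dnase1l3 turned positive.

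**Figure D1:**
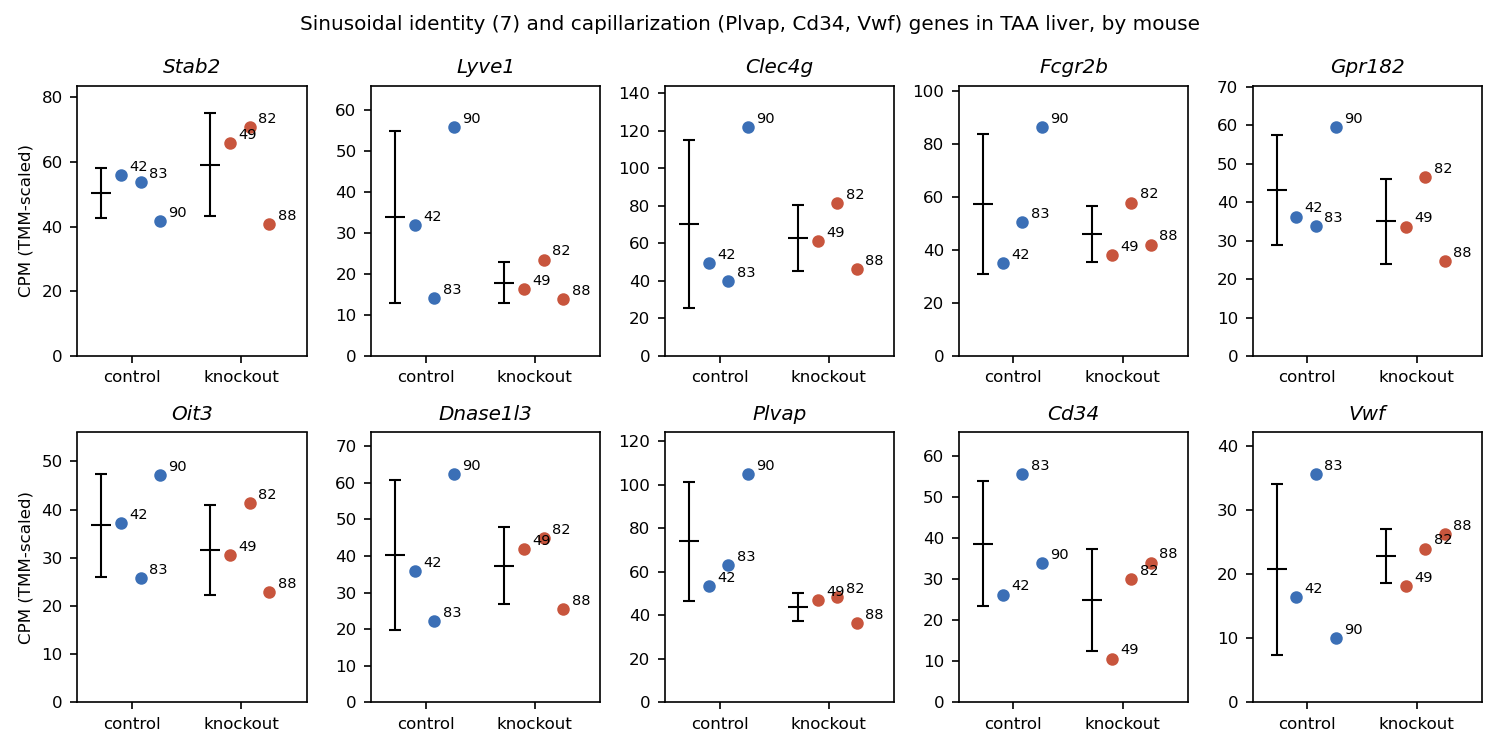
Each panel gives 1 gene, with the TMM-scaled CPM of every mouse (points, labelled by mouse number) and the mean and SD of 3 mice per genotype (bars to the left of the points). Plvap is the panel in which the genotypes do not overlap, and control mouse 90 is the highest point in 7 of the 10 panels (27.3% of all genes tested).

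Promoters of the 10 genes were looked up in RefSeq (GRCm38.p6), and 4 matched (Stab2, Clec4g, Fcgr2b and Cd34). Clec4g and Cd34 are shown as an identity gene and a capillarization gene whose order of control mice differed, mouse 83 being the lowest control for Clec4g and the highest for Cd34. The 250 bases before the start site are printed 5′ to 3′ on the strand of the gene. Matches to AGGAAG or CTTCCT, the ETS letters searched here, are in capitals. Shorter ETS cores were neither searched nor marked. The windows are chr8:3720652-3720901 (minus strand) and chr1:194938571-194938820 (plus strand).
Clec4g: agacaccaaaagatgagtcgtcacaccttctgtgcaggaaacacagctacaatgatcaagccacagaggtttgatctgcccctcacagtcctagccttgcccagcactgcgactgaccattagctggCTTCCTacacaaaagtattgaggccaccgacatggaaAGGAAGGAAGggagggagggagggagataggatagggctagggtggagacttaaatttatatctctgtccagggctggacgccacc
Cd34: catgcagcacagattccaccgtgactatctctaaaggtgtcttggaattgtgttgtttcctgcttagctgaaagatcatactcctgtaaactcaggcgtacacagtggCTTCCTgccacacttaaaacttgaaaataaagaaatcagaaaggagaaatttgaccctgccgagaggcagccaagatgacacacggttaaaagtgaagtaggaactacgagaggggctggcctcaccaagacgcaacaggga
Clec4g has 3 matches, of which 2 overlap each other, and Cd34 has 1. Of all 32851 promoter windows of this length 29.5% hold the ETS letters, and Stab2 holds them too while Fcgr2b does not. The GATA letters AGATAA or TTATCT, present in 9.99% of all windows, were in none of the 4. A match of letters is a description and not a binding site.

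Stab2 encodes stabilin-2, the hyaluronan scavenger receptor of sinusoidal cells (chromosome 10, 86841198 to 87008025, minus strand, GRCm38). It had 55.9, 53.7 and 41.6 CPM in control mice 42, 83 and 90 and 65.9, 70.7 and 40.9 CPM in knockout mice 49, 82 and 88. The groups overlapped, with mouse 88 lowest of all and mouse 82 highest. Stab2 was the identity gene with a positive difference and had the narrowest spread of the 10 genes, 1.73-fold from the lowest to the highest mouse. The difference came to 0.23 log2 (SE 0.24; 95% interval -0.31 to 0.76; edgeR adjusted p 0.722), to 0.07 both without mouse 90 and with the length trend removed, to 0.06 without mouse 82 and with total counts, and to 0.41 without mouse 88.

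Lyve1, a hyaluronan receptor shared by sinusoidal and lymphatic endothelium and by some macrophages (chromosome 7, 110850607 to 110863239, minus strand), had the largest difference of the 10 genes in edgeR with all 6 mice, though not without mouse 90, without mouse 88 or in limma-voom, where that of Cd34 was larger. Its levels were 31.9, 14.1 and 55.7 CPM in control mice 42, 83 and 90 against 16.3, 23.5 and 13.8 CPM in knockout mice 49, 82 and 88. Control mice 42 and 90 lay above every knockout mouse, while control mouse 83 lay among them. The difference was -0.92 on the log2 scale (SE 0.44, 95% interval -1.92 to 0.08, edgeR adjusted p 0.468). Without mouse 90 it was -0.40 (SE 0.37) and without mouse 83 -1.30 (SE 0.31, adjusted p 0.71). With the length trend removed it was -0.90. Among lymphatic genes, Pdpn and Ccl21a had 0 counts in all 6 mice and Mmrn1 reached at most 1.57 CPM. Whether reads of Pdpn and Ccl21a could be counted at all was not tested, so their zeros set no limit on expression. The part of lymphatic cells in the Lyve1 values was not tested.

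Clec4g, the C-type lectin LSECtin (chromosome 8, 3707064 to 3720651, minus strand), had 49.7, 40.0 and 121.9 CPM in control mice and 61.2, 81.2 and 46.4 CPM in knockout mice, in the same order of mice. Control mouse 90 was far above the others and control mouse 83 was the lowest of the 6. The log2 fold change of -0.16 (SE 0.40, 95% interval -1.08 to 0.76) became 0.45 (SE 0.24, interval -0.12 to 1.02) without mouse 90 and 0.07 with the length trend removed, so its sign depended on these choices. An antisense gene overlaps 5.93% of Clec4g exons, the largest such overlap among the 10 genes. Dnase1l3, a secreted deoxyribonuclease that degrades DNA in blood (chromosome 14, 7964533 to 7994573, minus strand), gave 35.8, 22.2 and 62.5 CPM in controls and 41.8, 45.0 and 25.4 CPM in knockout mice. Mice 90 and 83, both controls, were its extremes, and the log2 fold change moved from -0.10 (SE 0.37) to 0.33 (SE 0.29) without mouse 90, to 0.10 without mouse 88 and to -0.39 without mouse 83. With the length trend removed it was -0.23 (SE 0.42).

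Fcgr2b, the inhibitory IgG receptor through which sinusoidal cells take up immune complexes (chromosome 1, 170958617 to 170976547, minus strand), had 35.0, 50.7 and 86.4 CPM in control mice, against 38.0, 57.9 and 42.01 CPM in knockout mice. The genotypes overlapped and differed by -0.32 log2 (SE 0.32), or by 0.05 without mouse 90. Fcgr2b is also made by B cells and macrophages. The 8 B cell genes listed took 13.3 to 21.4 CPM together in control and 6.70 to 7.64 CPM in knockout livers. The 10 Kupffer cell genes took 393 to 1360 CPM in controls and 619 to 806 CPM in knockout livers, with mouse 90 highest. In mouse 90 C1qa, C1qb and C1qc, with short transcripts of 1040 to 1203 bases, held 287, 256 and 254 CPM of that sum. Adgre1 was highest in mouse 83, Timd4 and Marco in mouse 49, and the other Kupffer cell genes in mouse 90. The part of either cell type in the Fcgr2b values was not tested. Of the 50-base stretches of Fcgr2b transcripts 4.38% also occur in other genes, mostly in Fcgr3 (2.92%), so reads there could be shared.

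Gpr182, an endothelial receptor that scavenges chemokines (chromosome 10, 127747276 to 127751732, minus strand), had 36.3, 33.7 and 59.5 CPM in controls and 33.7, 46.6 and 24.7 CPM in knockout mice. Oit3, a sinusoidal endothelial gene with a zona pellucida domain (chromosome 10, 59422958 to 59441778, minus strand), had 37.3, 25.8 and 47.2 CPM in controls and 30.5, 41.4 and 22.8 CPM in knockout mice. Both genes had the same highest mouse (90) and the same lowest mouse (88), with mouse 82 the highest of the knockout mice. The log2 fold change was -0.30 (SE 0.29) for Gpr182 and -0.22 (SE 0.28) for Oit3, and both came close to 0 without mouse 90, at -0.04 in each.

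Within each genotype the identity genes ranked the mice in much the same way. Knockout mouse 82 was the highest of the knockout mice in 7 of 7 genes and mouse 88 the lowest in 6 of 7, against 29.0% and 31.2% of all genes tested. Pecam1, Cdh5 and Kdr, general endothelial genes taken up below, also had mouse 82 highest and mouse 88 lowest of the knockout mice. Eng, another such gene, was highest of the knockout mice in mouse 88. The order of the knockout mice was thus not particular to the identity genes. Among the controls mouse 90 was highest in 6 of 7 (37.2% of all genes), and the exception was Stab2. Summed over the 7 genes, levels were 282, 240 and 475 CPM in control mice 42, 83 and 90 and 287, 366 and 216 CPM in knockout mice 49, 82 and 88. The difference between mice of 1 genotype was thus larger than that between genotype means.

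The 3 capillarization genes did not share an order of mice. Plvap was highest in mouse 90 and lowest in mouse 88, as were the identity genes Lyve1, Gpr182 and Oit3. Cd34 and Vwf were highest in mouse 83. Plvap encodes the protein of the diaphragms that close fenestrae and caveolae in capillaries (chromosome 8, 71497765 to 71511752, minus strand). It had 53.5, 63.3 and 105.1 CPM in control mice 42, 83 and 90 and 47.2, 48.3 and 36.5 CPM in knockout mice 49, 82 and 88. Every knockout liver was under every control liver, and the knockout mean was 59.5% of the control mean (74.0 ± 27.4 CPM in control against 44.0 ± 6.53 CPM in knockout, SD, n = 3 each). On the log2 scale the difference was -0.75 (SE 0.27, 95% interval -1.35 to -0.15), unadjusted p 0.0206 and adjusted p 0.374 in edgeR, and adjusted p ranged from 0.146 to 0.839 over the alternatives. Without mouse 90 the difference was smaller, at -0.45 (SE 0.17, interval -0.87 to -0.04, adjusted p 0.449). Without knockout mouse 88 it was -0.65 (SE 0.30, unadjusted p 0.0622 in edgeR), and its 95% interval took in 0. With the length trend removed it was -0.66 (SE 0.21, interval -1.15 to -0.18, adjusted p 0.278), and the genotypes still did not overlap, the lowest control liver being at 54.8 CPM. The share of all genes without overlap after this removal was not counted.

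Cd34, a sialomucin of capillary endothelium that fibroblasts and blood progenitors also carry (chromosome 1, 194938819 to 194961279, plus strand), had 26.3, 55.7 and 34.0 CPM in controls and 10.7, 30.1 and 34.1 CPM in knockout mice. Knockout mouse 49 was far below the other 5 mice and control mouse 83 far above, a 5.22-fold range, the widest of the 10 genes. The log2 fold change of -0.64 (SE 0.42, edgeR adjusted p 0.595) was -0.27 without mouse 49 and also -0.27 without mouse 83, while leaving out any other mouse gave -0.78 (mouse 90) to -0.97 (mouse 88). Mouse 49 was also the lowest of the 6 in the summed level of 9 portal fibroblast genes, at 287 CPM against 535 to 802 CPM in control livers and 570 and 713 CPM in knockout mice 82 and 88. It was also the lowest of the 6 in the sums of the stellate cell (238 CPM), bile duct (295 CPM) and other continuous endothelium genes (183 CPM). In the sums of the Kupffer cell and hepatocyte genes it was not. The part of fibroblasts or of any other cells in the Cd34 values was not tested.

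Vwf encodes von Willebrand factor, stored by endothelium of larger vessels and by platelets (chromosome 6, 125546774 to 125686679, plus strand). It had 16.5, 35.7 and 10.1 CPM in controls and 18.1, 24.0 and 26.3 CPM in knockout mice. The control mice held both the highest and the lowest value, and the genotypes differed by 0.13 log2 (SE 0.41, 95% interval -0.79 to 1.05). It was -0.25 without mouse 90, in which Vwf, with the longest transcript of the 10 genes (8834 bases), was lowest. It was 0.78 without mouse 83, 0.0011 with the length trend removed, and -0.10 with total counts as the only scaling, which moved the median of all genes from -0.02 to -0.17. Of 9 platelet genes 3 passed the low-count filter; the 9 took 8.43 to 11.3 CPM together in all mice, and Gp1bb and Treml1 had 0 counts throughout.

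**Figure D2:**
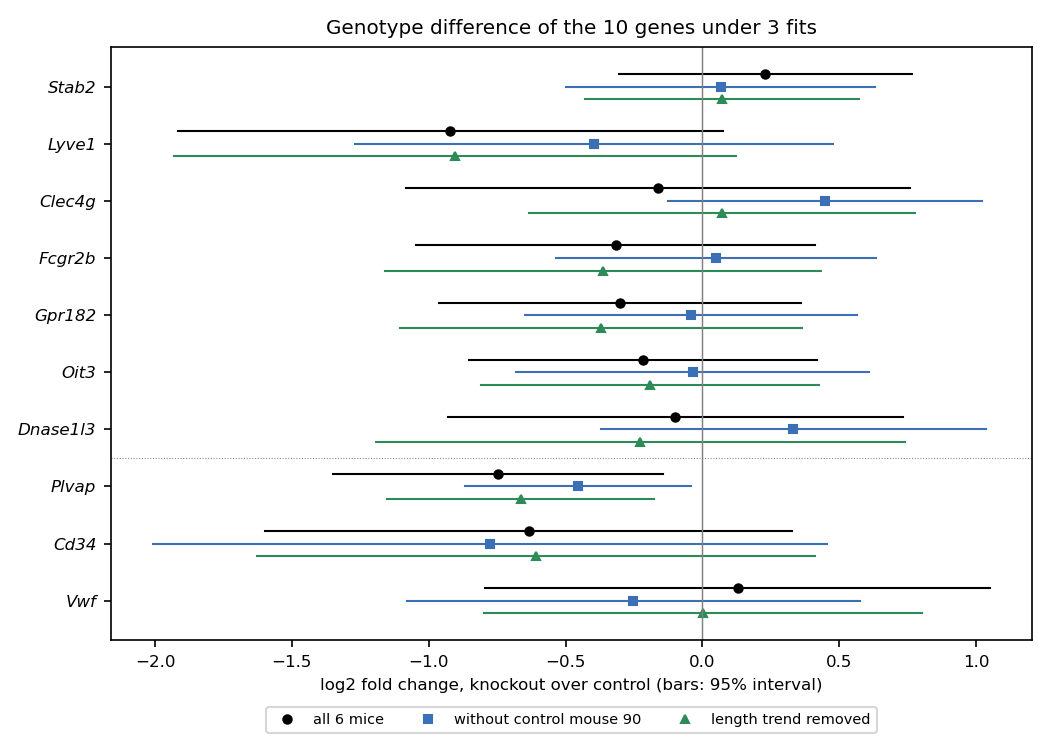
Log2 fold change of knockout over control for each gene (horizontal axis) with its 95% interval, from all 6 mice, without control mouse 90 and with the trend on transcript length removed, with the identity genes above the dotted line. The Plvap intervals lie below 0 in the 3 fits drawn, but not in the fit without knockout mouse 88 (-0.65, SE 0.30, not drawn). Clec4g, Fcgr2b, Dnase1l3 and Vwf change sign without mouse 90.

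Per kilobase of transcript, Clec4g was the most abundant of the 10 genes in these livers (53.7 ± 24.7 CPM per kb, SD over all 6 mice), followed by Plvap (29.7 ± 12.2). Clec4g was above Plvap in 6 of 6 mice and Plvap above Fcgr2b (14.6 ± 5.36) in 6 of 6. Fcgr2b, Cd34 (12.97 ± 5.94) and Oit3 (12.6 ± 3.47) did not differ beyond their spread, and neither did Gpr182 (9.88 ± 3.09), Lyve1 (8.94 ± 5.59) and Dnase1l3 (8.17 ± 3.08). Stab2 had 6.66 ± 1.49 and Vwf 2.46 ± 1.01 CPM per kb, with Stab2 above Vwf in 6 of 6 mice. Clec4g reached the 91.0th percentile of the 13100 tested genes with a known length, per kb of transcript, Stab2 the 50.7th and Vwf the 27.7th.

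In mouse 90 the longest of the 10 genes were set apart from the rest. Its deviation from the 6-mouse mean was positive in the 7 members of 1242 to 4747 bases other than Cd34 (0.51 for Oit3 to 1.30 for Lyve1) and in Cd34 (0.25), and negative in the members longer than 8000 bases, Stab2 (-0.37) and Vwf (-1.004). Across the 10 genes Spearman's rho between length and this deviation was -0.60, and across 12710 genes with a mean of at least 1 CPM it was -0.55, while the other mice gave 0.11 to 0.29 across genes. These are correlations across genes of 1 library, which are not independent replicates. Those of the other mice in part mirror mouse 90, which is in the shared mean. With each mouse's length trend removed, Lyve1 (54.8 CPM), Clec4g (91.2), Fcgr2b (91.3), Gpr182 (65.0), Oit3 (45.4), Dnase1l3 (71.9) and Plvap (92.2) were still highest in mouse 90. The removal raised Fcgr2b (from 86.4 CPM), Gpr182 (59.5) and Dnase1l3 (62.5) in that mouse. It lowered Lyve1 (from 55.7 CPM), Clec4g (121.9), Oit3 (47.2) and Plvap (105.1).

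**Figure D3:**
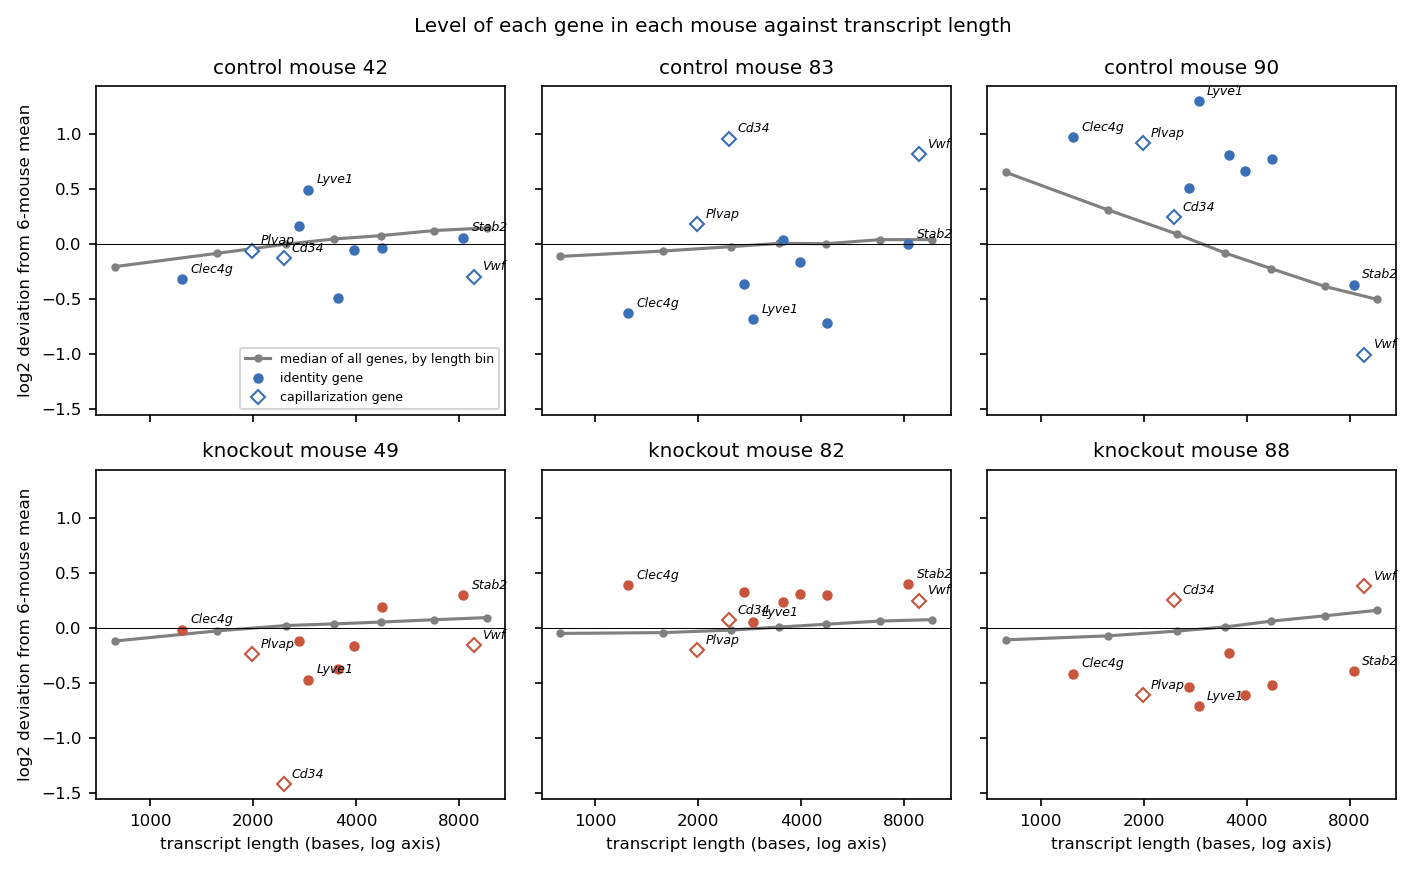
For each mouse, the log2 deviation of a gene from its 6-mouse mean (vertical axis) against transcript length (bases, log axis), with the 10 genes as points and the median of all genes per length bin as a grey line. The grey line falls from 0.66 to -0.50 in control mouse 90 and spans at most -0.20 to 0.16 in the other mice, and 6 identity genes and Plvap lie well above it in mouse 90.

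To set the 10 genes beside the endothelium as a whole, 20 genes listed as pan-endothelial were summed. The sum was 505, 566 and 587 CPM in control mice 42, 83 and 90 and 501, 672 and 524 CPM in knockout mice 49, 82 and 88, with overlapping genotypes. Its largest parts were Eng (99.6 to 168 CPM) and Ptprb (65.4 to 135 CPM). In knockout mouse 88 Eng was at 167 CPM, while Pecam1 (25.1), Cdh5 (28.1) and Kdr (43.4) were lower than in any other mouse. The part of other cells in the sum was not tested. The adhesion molecule Pecam1 (35.0 ± 0.946 CPM in control, 35.1 ± 9.00 in knockout, SD, n = 3), the cadherin Cdh5 (42.3 ± 4.53 against 40.4 ± 11.1) and the VEGF receptor Kdr (48.8 ± 3.50 against 53.3 ± 13.7) had close means, with log2 fold changes of 0.00 (SE 0.21), -0.07 (SE 0.23) and 0.13 (SE 0.21). Over the 20 genes the median was -0.06, with 13 negative and 7 positive. The extremes by p were Ecscr, a regulator of endothelial migration (-1.03, SE 0.37), and the phosphatase Ptprb (0.48, SE 0.21), whose transcripts are 1114 and 11911 bases long.

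Taken as a percentage of this pan-endothelial sum, Plvap stood at 10.6%, 11.2% and 17.9% in control mice and 9.42%, 7.18% and 6.96% in knockout mice, without overlap. These percentages reuse the Plvap counts above and are not a separate result. The share of all genes without overlap in this ratio was not counted. The mean difference was -0.72 log2, -0.48 without mouse 90 and -0.61 with the length trend removed. Lyve1 stood at 6.31%, 2.49% and 9.48% in control and at a narrow 3.25%, 3.49% and 2.63% in knockout mice. Stab2 overlapped, at 7.09% to 11.1% against 7.80% to 13.1%, and so did Cd34, with knockout mouse 49 at 2.13%. The other 6 genes overlapped as well. In knockout livers Fcgr2b held nearly the same share in each mouse (7.58% to 8.62%).

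**Figure D4:**
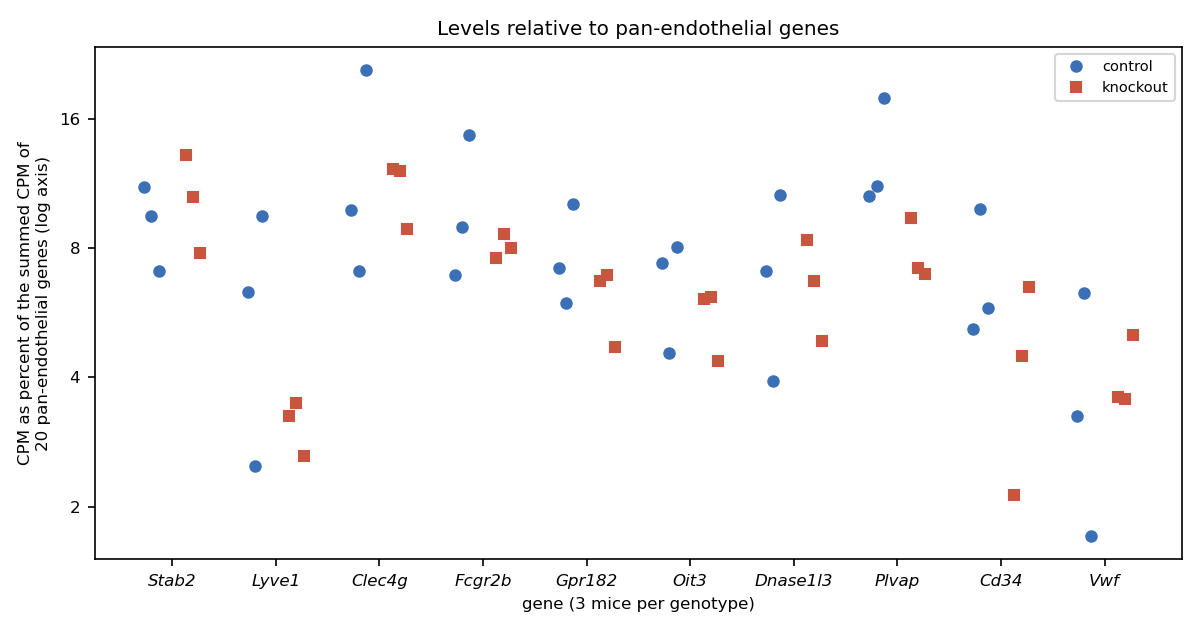
CPM of each gene as a percentage of the summed CPM of 20 pan-endothelial genes (log axis), 1 point per mouse, control as circles and knockout as squares. Only for Plvap do all control points (10.6% to 17.9%) lie above all knockout points (6.96% to 9.42%).

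Other genes of sinusoidal cells gave no common shift. Of 18 listed, 17 were tested, 7 had a negative and 10 a positive difference, no group was separate and the median was 0.06, a sign that turned with total-count scaling (-0.10) and with the length trend removed (-0.09). Stab1, the sister receptor of stabilin-2, had 102 ± 16.9 against 85.4 ± 10.4 CPM, control against knockout (-0.25, SE 0.19). Gata4, the transcription factor that sets sinusoidal identity, had 26.8 ± 6.03 against 30.2 ± 1.99 CPM (0.17, SE 0.20; SD, n = 3 each). Tfec, a transcription factor, and Cd36, a fatty acid receptor that hepatocytes and macrophages also carry, had the smallest p (-0.76, SE 0.47, and 0.39, SE 0.25).

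Other genes of continuous or activated endothelium had a median of -0.35 over 17 tested of 20, with 13 negative and 4 positive differences, while 3 (Apln, Aplnr and Sele) did not pass the low-count filter. At an unadjusted p under 0.05 in edgeR 3 were lower, where 5.95% of all genes tested were. They were Cd9, a tetraspanin of many cell types (-0.85, SE 0.31), Esm1, endocan of tip cells (-1.22, SE 0.49), and Icam1, a leukocyte adhesion molecule (-0.54, SE 0.24), each with an adjusted p over 0.38. Their groups overlapped. The list median was -0.08 without mouse 49 and -0.15 without mouse 83, and it was larger in size, at -0.54, without mouse 42 and -0.55 with total counts. Vcam1, another leukocyte adhesion molecule, had 40.2, 105 and 148 CPM in controls against 34.8, 63.6 and 60.3 CPM in knockout mice, with overlap.

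Endothelial genes of the 2 ends of the sinusoid and of blood flow were counted in the same way. Genes of pericentral endothelium had 4 positive and 2 negative differences (median 0.27), and Kit, the stem cell factor receptor, and Cdh13, T-cadherin, lay higher in every knockout liver (groups apart, knockout higher, in 8.94% of all genes). Kit had 10.5 ± 0.949 against 14.7 ± 1.02 CPM (0.48, SE 0.19) and Cdh13 3.00 ± 0.511 against 4.95 ± 1.40 CPM (0.72, SE 0.33; SD, n = 3). The 6 periportal genes had 5 negative differences (median -0.41), and the smallest p were those of Ltbp4 (-0.44, SE 0.29) and the Notch ligand Dll4 (-0.43, SE 0.30). Of 8 genes of flow response and vessel tone 6 were negative (median -0.23). Klf4, a factor induced by laminar flow in endothelium but made by other cells too, had 7.33, 12.9 and 6.54 CPM in controls and 3.03, 3.60 and 2.02 CPM in knockout mice (-1.63, SE 0.36, adjusted p 0.256 in edgeR), and Klf2 had -0.66 (SE 0.32). None of these genes passed an adjusted p of 0.05.

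**Figure D5:**
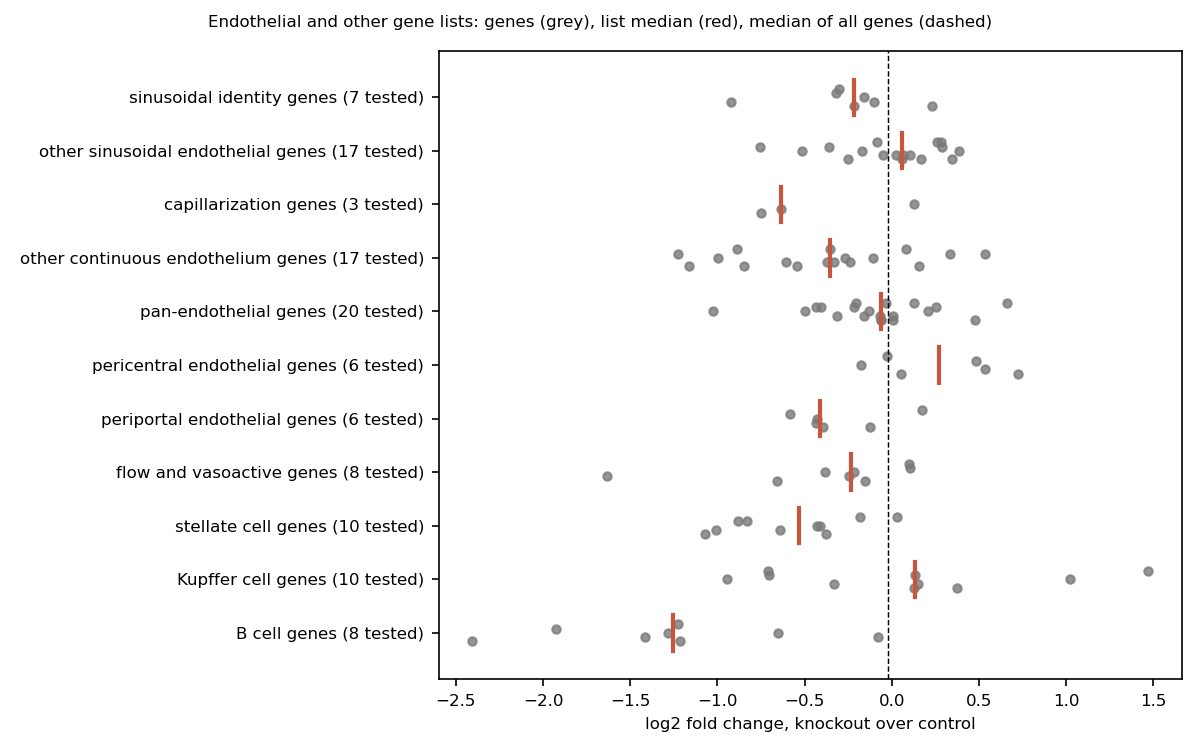
Log2 fold change of knockout over control for every tested gene (grey points) of 11 lists, with the list median (red line) and the median of all genes tested (dashed line, -0.02). The pan-endothelial (-0.06) and other sinusoidal (0.06) medians lie near the dashed line, and the medians of the 3 capillarization genes (-0.64) and of the other continuous endothelium genes (-0.35) lie to its left, with Vwf and 4 of the other continuous genes on its right.

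Lists of the other cells that whole liver holds were counted beside these, as a description. Stellate cell genes, the cells in which Cre is driven, had a median of -0.53 with 9 of 10 negative. Their sum did not overlap (483 to 544 CPM in control, 238 to 403 CPM in knockout livers), though how often such sums lie apart was not counted. Vipr1 (-0.83, SE 0.17) and Reln (-1.01, SE 0.24) had the smallest p of these genes. B cell genes had a median of -1.25 with 8 of 8 negative, with Cd22 at -1.22 (SE 0.36). Kupffer cell genes had a median of 0.13, with Marco at 1.47 (SE 0.51) and C1qa at -0.94 (SE 0.50). Medians were -0.49 for 9 portal fibroblast genes, -0.70 for 7 dendritic cell genes, -0.86 for 8 bile duct genes, 0.38 for 12 hepatocyte genes, -0.29 for 3 platelet genes and 0.35 for 3 lymphatic genes, Flt4 and the hepatocyte gene Prox1 among the last.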

How the data were processed

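The authors deposited raw counts per gene symbol for 6 livers. Per the submitters' processing notes the tools were Trimmomatic, FastQC, STAR and HTSeq on mm10 (no versions). Annotation, strand setting and handling of multi-mapped reads: not given in the sources used here. Reads of an antisense partner that overlaps a gene therefore cannot be separated from its own. Per the labels' protocols, TRIzol RNA went into a NEBNext Ultra RNA library. Mice were grouped by title and columns matched by mouse number.

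Counts were filtered with filterByExpr (13153 genes kept), TMM factors were computed, and edgeR 4.0.16 under R 4.3.3 fitted a quasi-likelihood model with genotype alone, adjusted by Benjamini-Hochberg over all genes. Standard errors were derived from the F statistic, and intervals are at 95%. DESeq2 1.42.0 and limma 3.58.1 (voom) were alternatives. The length trend was a lowess curve (span 0.3) of each mouse's log2 deviation on transcript length, used as an offset and added after seeing the data. GENCODE M21 (GRCm38, the assembly of mm10) gave positions and lengths (longest principal transcript); 21896 of 21983 symbols had 1 match. The fit was also run on simulated counts, drawn with a common spread for all genes, unlike the data. The outcome is not given here, and no result rests on it.

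The 10 genes, 17 lists (167 entries) and alternatives were chosen with earlier results of these data known. Named genes are the 10, the 2 smallest p of each other list (not all are reported), Pecam1, Cdh5, Kdr, Stab1, Gata4 and Prmt1. Eng, Icam1, Vcam1, C1qa, C1qb, C1qc, Adgre1, Prox1 and the genes at 0 counts were named after their values were seen.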

Additional observations from a re-analysis of the deposited data

How the results depend on the processing

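With all mice edgeR called 0 genes at adjusted p 0.05 (1448 at an unadjusted p under 0.05), and also 0 with RLE factors, total counts, the 20 most abundant genes left out, at least 1 CPM in 3 mice, limma-voom and the length trend removed. There were 238 with DESeq2, 4 without the low-count filter, 6 with a term for mouse number (42 and 49 against the rest) and 3 at a threshold of 0.10. Leaving out each mouse in turn gave 0 to 13 genes, the 13 without knockout mouse 49. None of the 10 genes passed in any of these. The cause of these changes was not tested. Stab2 was positive, and Lyve1, Gpr182, Oit3, Plvap and Cd34 negative, in all 15 alternatives that refitted the data. Vwf was reversed with total counts (-0.10) and Clec4g with the length trend removed (0.071). With each mouse left out, Vwf ranged from -0.25 to 0.78, Clec4g from -0.45 to 0.45, Fcgr2b from -0.57 to 0.050, Dnase1l3 from -0.39 to 0.33, Stab2 from 0.06 to 0.41, Lyve1 from -1.30 to -0.40, Gpr182 from -0.57 to -0.04, Oit3 from -0.47 to -0.04, Plvap from -0.93 to -0.45 and Cd34 from -0.97 to -0.27. The median of the other sinusoidal genes ranged from -0.16 to 0.12, and that of the identity genes from -0.47 to 0.05. No paired analysis was possible because the genotypes share no mouse number. With 3 mice a group, intervals of the 10 genes reach 0.5 to 1.0 log2 to each side of the estimate. A difference whose interval left out 0 could still miss the adjusted threshold. Plvap did so, at -0.75 (interval -1.35 to -0.15, edgeR adjusted p 0.374).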
